A study of Oryza sativa Japonica Group with 6 samples.

Results

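The genes described here encode proteins that loosen or cut the plant cell wall, or are related to such proteins. They are expansins of the classes EXPA and EXPB, expansin-like EXLA, the xyloglucan endotransglucosylase/hydrolase XTH8, and endoglucanases named GLU or Cel9. The rule for members used gene symbols and synonyms and no measured difference between the groups. A gene was a member if at least 1 rice probe set mapped to it and to no other gene, and it was represented by the one of these probe sets with the highest mean. This gave 43 genes of 17905 with such a probe set: 14 EXPA, 11 EXPB, 4 EXLA, 1 XTH and 13 GLU or Cel9 genes. The gene table listed 64 genes with these names, and the 21 others, among them 15 EXPA genes and the sole EXLB gene, were not analysed here.

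RNA of developing rice seeds (Oryza sativa Japonica Group) was hybridised to Affymetrix rice genome arrays. The first group, additional NH4Cl, held 3 arrays from plants whose soil was sprayed at heading with ammonium chloride, 400 mg for a container, and whose seed was labelled 15 days after flowering. The second group, control, held 3 arrays from plants without it, and no label gives the age of their seed. Both groups shared the fertilizer at planting and a second dose 37 days after germination. The plants of the groups stood on separate trays, so tray and treatment cannot be told apart. The labels call the arrays of a group biological replicates but do not say how the 6 plants were divided among them, and the extraction label speaks of pooled seedlings where the tissue label says seed. P-values therefore measure the spread between the deposited values of these arrays, which may be partly technical.

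Plant cells enlarge when the wall around them yields to turgor. Expansins let the wall extend by loosening the contacts between its polysaccharides without cutting them, XTH enzymes cut xyloglucan chains and can rejoin them to new ends, and endoglucanases of glycoside hydrolase family 9 cut β-1,4-glucan chains. In the growing grain such proteins act while maternal tissues stretch and the endosperm fills, and part of the endoglucanase family works at the plasma membrane during cellulose synthesis. The study asked how additional fertilizer alters gene expression in the seed.

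The deposited values were read as log2 signal, and they differed extremely little between arrays. Array medians lay between 5.71845 and 5.7186, and across the 6 arrays the SDs of rice probe sets had a median of 2.25e-06. Differences cannot be read as log2 fold changes of RNA on this scale. The SDs, SEs and p-values rest on the same small spread. They need not measure the variation between plants or between hybridizations. They are given in thousandths or millionths of a deposited log2 unit and in within-group SDs of the same probe set. Probe sets differ in how strongly they bind, so signals do not rank the genes by RNA level. As a mark of background, the highest of 64 reporter control probe sets, which detect no rice gene, stood at 6.07. Of the fixed endosperm markers with a probe set, 9 of 10 were above it on all arrays, with the storage protein genes GLUA-2 and prolamin at 13.21 and 13.51. So were 8 of 8 embryo and aleurone markers, 4 of 5 of green tissue, and 1 of 3 of vegetative or root tissue. With additional NH4Cl 7 of 10 endosperm, 3 of 8 embryo and aleurone and 5 of 5 green tissue markers were higher, with 0 called in each list. The endosperm markers GLUA-1, GLUA-3, GLUB-5 and prolamin were higher with groups that did not overlap, beside 8.42% of all rice probe sets and 8.8% at 1 probe set per gene. In that order their differences were 3.9e-07, 1.65e-05, 4.13e-07 and 1.7e-07 deposited log2 units, with limma adjusted p between 0.31 and 0.874. The green tissue markers had a summed log2 signal of 43.849 to 43.853, against 43.847 to 43.851 in control. For embryo and aleurone markers the sums were 73.666 to 73.773 with additional NH4Cl, against 73.698 to 73.745 in control. Endosperm markers summed to 118.96558 to 118.96559, against 118.96555 to 118.96557. The part of any marker list in the results was not tested. In whole seeds, fewer cells of a type and less RNA per cell cannot be told apart. Of the pollen expansins EXPB10 alone had a probe set, at 5.52, which was not above the reporters.

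No member passed the test between additional NH4Cl and control. With limma and Benjamini-Hochberg adjustment over 57194 rice probe sets, 0 of 43 were called, beside 0.00699% of all rice probe sets (4 of 57194, all lower). The members' adjusted p lay between 0.285 and 0.993. At an unadjusted p under 0.05 stood 6 of 43 members, or 14.0%, beside 11.1% of all rice probe sets and 17.1% with 1 probe set per gene. Of the 6, EXLA1 and EXPA8 were higher, beside 5.09% of all rice probe sets, and EXLA4, EXPA29, OsCel9C and XTH8 lower, beside 5.96%. The arrays of the groups did not overlap for 11 of 43, or 25.6%, beside 17.4% of all rice probe sets and 23% where each gene had 1 probe set. Of these, 5 were higher with additional NH4Cl, beside 8.42% of all rice probe sets and 8.8% at 1 probe set per gene. The other 6 were lower, beside 8.99% and 14.2%. In all, 22 members were higher and 21 lower, beside 50.4% of all rice probe sets and 44.6% of genes at 1 probe set each higher. The median t was 0.17, against 0.01 for all rice probe sets and -0.19 at 1 probe set per gene. A test with unequal variances also called 0 of 43.

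**Figure D1:**
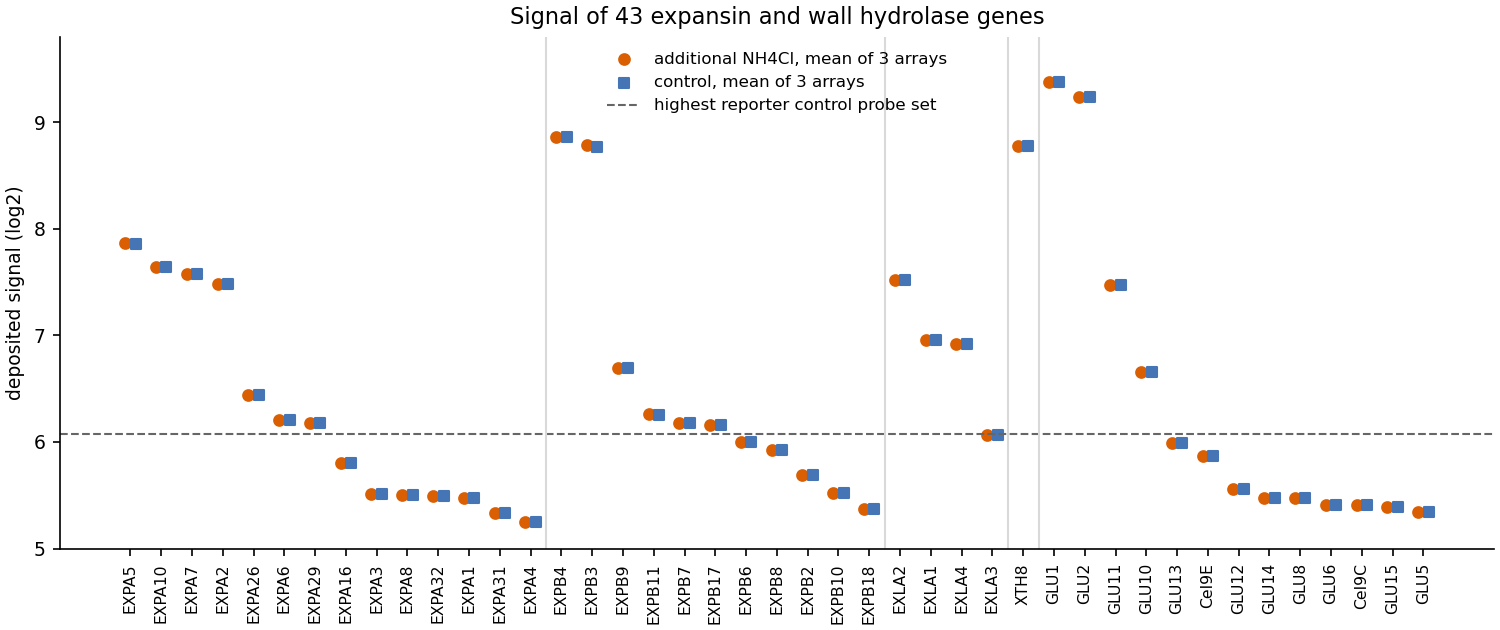
Mean deposited signal (log2, vertical axis) of each of the 43 genes on the 3 additional NH4Cl arrays (circles) and the 3 control arrays (squares), ordered by class and then by signal, with the highest reporter control probe set as a dashed line. The circle and the square of a gene stand level, and 21 of the 43 genes lie above the line.

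Above all reporters on all arrays were 21 of 43 members, or 7 EXPA, 6 EXPB, 3 EXLA, 1 XTH and 4 GLU genes, beside 66.8% of genes at 1 probe set each and 33.1% of all rice probe sets. The plot of mean signals by class shows them. For the 22 others the signal need not come from the gene's RNA, and their differences ran from 0.0777 to 659.5 millionths in size. Of the 21 above the reporters, 6 had groups that did not overlap, 2 higher and 4 lower, beside 24% of the 18939 rice probe sets at such signals (11% higher, 13% lower). At an unadjusted p under 0.05 stood 4 of 21, or 19.0%, beside 18.3%, and limma called 0 of 21, beside 0.00528%.

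EXPA genes encode α-expansins, the class first tied to acid-induced wall extension. With additional NH4Cl 7 of 14 were higher and 7 lower, with a median t of 0.0037, and 0 were called. EXPA5 had the highest signal of its class, 7.86 in both groups. It stood 10.6, 2.98 and -1.5 thousandths from the control mean on the additional NH4Cl arrays of replicates 1, 2 and 3, and -4.09, 0.891 and 3.2 thousandths on the control arrays. NH4Cl replicate 1 was the highest array and control replicate 1 the lowest, while the other arrays intermingled, so that the groups overlapped. The difference was 4.03 thousandths (SE 4.14, n = 3 per group; 0.795 SDs; limma adjusted p of 0.828), and it was 0.738 thousandths without that NH4Cl replicate 1.

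EXPA10, known in rice as an aluminium-inducible expansin of roots, had a signal of 7.64 in both groups, measured with a probe set that can hybridize with several transcripts. Its values were -0.431, 0.0624 and -0.0126 thousandths from the control mean with additional NH4Cl, and 0.115, 0.291 and -0.406 in control. The lowest NH4Cl array and the lowest control array lay close together, and the groups overlapped. The difference of -0.127 thousandths (SE 0.26; adjusted p of 0.945) was positive after quantile normalization, without NH4Cl replicate 1 and without control replicate 2.

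EXPA29 had the largest difference of its class relative to its spread. Its values were -0.0754, -0.0999 and -0.0896 thousandths from the control mean with additional NH4Cl and 0.00268, -0.0389 and 0.0363 in control. All 3 NH4Cl arrays lay below all 3 control arrays. The difference was -0.0883 thousandths (SE 0.0229; -3.15 SDs), its adjusted p was 0.285 with limma, and it was positive after median centring. The signal of EXPA29, 6.18, lay close above the reporters.

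EXPA8, an expansin tied to root growth in rice, and EXPA32 also had groups that did not overlap, here with NH4Cl above control. EXPA8 stood at 10.6, 4.59 and 8.68 millionths from the control mean with additional NH4Cl, against 3.77, -4.14 and 0.373 in control. EXPA32 stood at 0.839, 0.527 and 1.54 millionths with additional NH4Cl, against 0.42, -0.359 and -0.0603 in control. Their adjusted p were 0.418 and 0.501, and both lay at signals of 5.51 and 5.50, below the reporter mark.

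The 9 other EXPA genes had overlapping groups, with 4 higher, 5 lower and adjusted p between 0.68 and 0.993. Of these EXPA2, EXPA6, EXPA7 and EXPA26 lay above the reporters, at 7.48, 6.21, 7.57 and 6.44 in both groups. EXPA2, at -1.002, 0.19 and 1.84 thousandths from the control mean with additional NH4Cl and -0.225, -0.141 and 0.366 in control, had the widest spread of the 4. Both the lowest and the highest of its arrays were NH4Cl arrays, with all controls between them. EXPA7 had 3 probe sets; the brightest stood at 0.0358 thousandths and was lower after quantile normalization, and the other two were not above the reporters. EXPA4, tied to internode and coleoptile growth in rice, had a signal of 5.25 and EXPA1 one of 5.48, both below the mark.

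**Figure D2:**
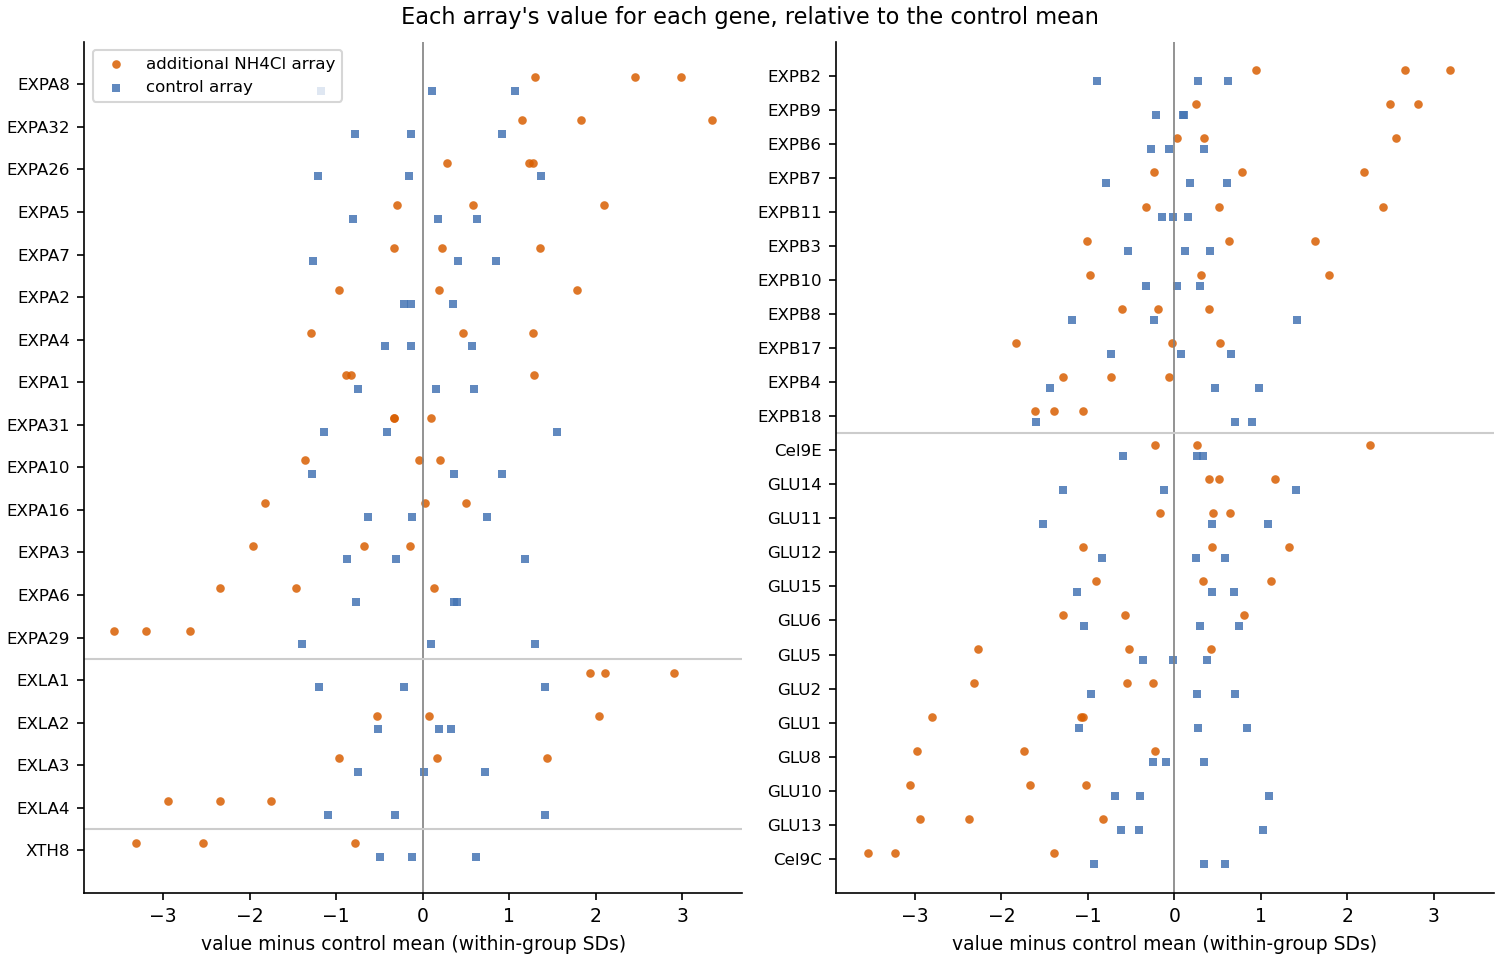
Distance of each array from the control mean (horizontal axis, in within-group SDs of the gene) for the 43 genes, with the 3 additional NH4Cl arrays as circles above the 3 control arrays as squares and genes sorted by their difference within each class. Circles and squares are apart for 11 genes, among them EXPA29, EXLA4, XTH8 and GLU10 to the left and EXLA1, EXPB2 and EXPB9 to the right.

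EXPB genes encode β-expansins, the class that includes the group-1 pollen allergens of grasses and vegetative expansins. With additional NH4Cl 7 of 11 were higher and 4 lower, with a median t of 0.53, and 0 were called. EXPB9 was the one above the reporters whose groups did not overlap. Its signal was 6.70 with additional NH4Cl and 6.69 in control, and its arrays stood at 4.69, 0.46 and 5.29 thousandths from the control mean, against 0.209, 0.194 and -0.403. NH4Cl replicates 1 and 3 were far above the control arrays and replicate 2 close to them. The difference was 3.48 thousandths (SE 1.53; 1.85 SDs; limma adjusted p of 0.499), with 3 of 3 NH4Cl arrays above the control mean. It was positive after quantile normalization. Leaving out any 1 array could not turn it, since the groups did not overlap. Nor could median centring, which added a positive amount to every difference.

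EXPB3 had the widest spread of all members, at the 99.9th percentile of rice probe sets, and a probe set that can hybridize with several transcripts. Its arrays stood at -43.1, 26.9 and 68.9 thousandths from the control mean with additional NH4Cl, and at 5.31, 17.3 and -22.6 in control. The lowest and the highest array both had additional NH4Cl, and the controls lay between them. The difference was 17.6 thousandths (SE 34.7; 0.413 SDs; adjusted p of 0.94), with a 95% interval of -70.4 to 106. Without NH4Cl replicate 3 it was -8.09 thousandths.

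EXPB4, with a signal of 8.86 in both groups on a probe set that can also hybridize with several transcripts, stood at -0.515, -0.296 and -0.0271 thousandths from the control mean with additional NH4Cl. Its control arrays stood at 0.188, 0.392 and -0.579. The lowest array was a control one, and the difference was -0.28 thousandths (SE 0.327; adjusted p of 0.862). It was lower under both scalings and with any 1 array left out, at -0.0837 thousandths without control replicate 2 and -0.569 without control replicate 3.

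EXPB6, EXPB2, EXPB3 and EXPB4 follow each other without another gene between them in assembly ASM3414082v1, and EXPB8 and EXPB7 have 1 gene between them. With additional NH4Cl the first 3 of the 4 in a row were higher and EXPB4 lower, none of them called. EXPB3 and EXPB4 lay far above the reporters at 8.78 and 8.86 over all arrays, and EXPB6 and EXPB2 below them at 6.00 and 5.69. EXPB2, tied to root growth in rice, had groups that did not overlap, at 1.58, 1.32 and 0.469 millionths with additional NH4Cl against -0.441, 0.307 and 0.133 in control (adjusted p of 0.464).

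The other EXPB genes had overlapping groups and adjusted p between 0.649 and 0.993. EXPB7, at 6.18 with additional NH4Cl and 6.17 in control, stood at -0.473, 1.57 and 4.42 thousandths with additional NH4Cl and 0.366, 1.23 and -1.59 in control. EXPB11, at 6.26 in both groups, stood at -0.366, 0.57 and 2.64 thousandths with additional NH4Cl and -0.012, -0.16 and 0.172 in control. In EXPB3, EXPB7 and EXPB11 alike, NH4Cl replicate 3 was the highest of the 6 arrays and replicate 1 among the lowest 2. The same order held for 8 of 43 members (18.6%) and for 8.96% of all rice probe sets, and was noticed after the values were seen. NH4Cl replicate 3 was the highest array for 15 of 43 members (34.9%), among them 5 of 11 EXPB genes, and for 20.3% of all rice probe sets. Of the 21 members above the reporters, NH4Cl replicate 3 was the highest for 7 (33.3%), beside 20.3% of all rice probe sets. Control replicate 2 was the highest for 8 (38.1%), beside 15.1%. No share was computed for rice probe sets at such signals.

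**Figure D3:**
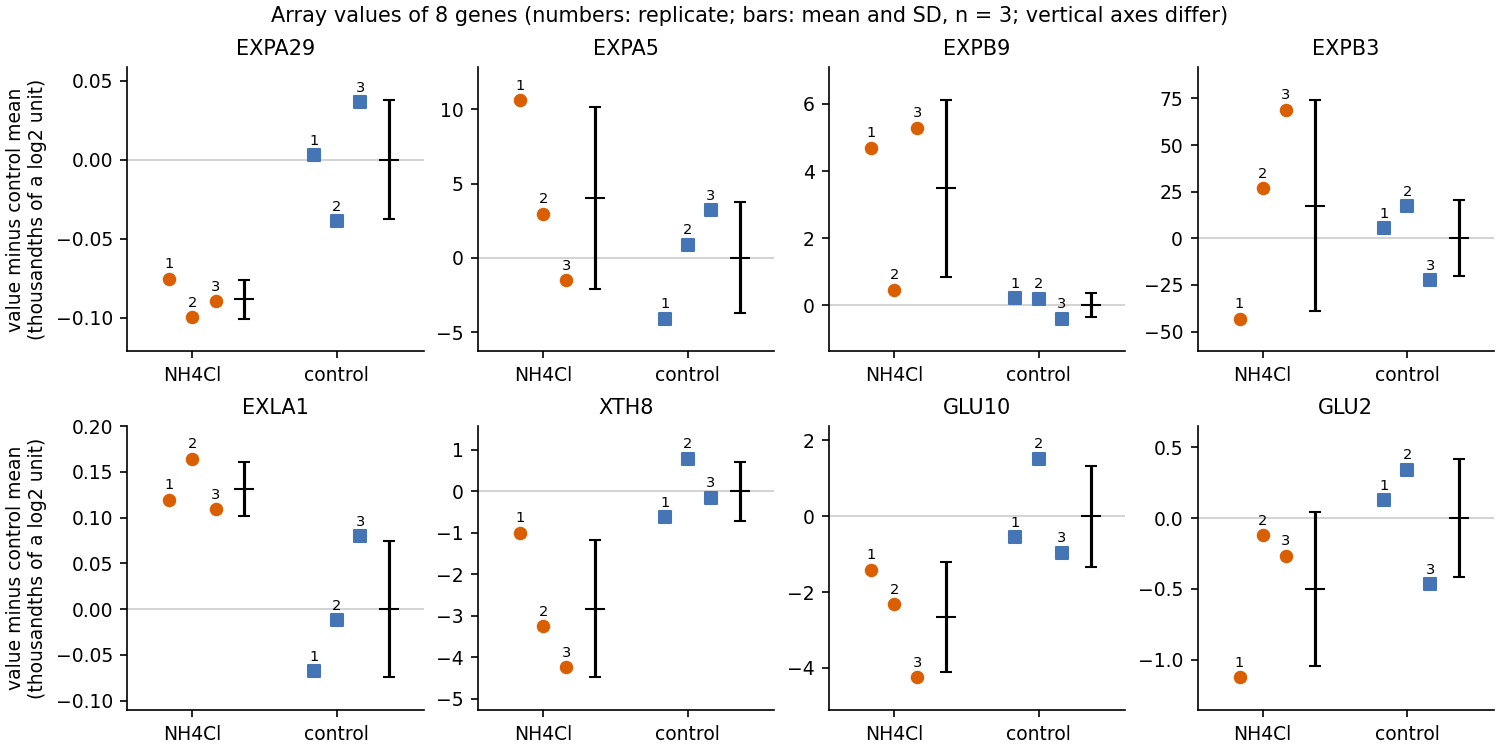
Values of 8 genes on the single arrays, as distance from the control mean in thousandths of a deposited log2 unit, with additional NH4Cl (circles) left of control (squares), replicate numbers beside the points, and mean and SD of each group (n = 3) as bars. Groups are apart for EXPA29, EXPB9, EXLA1, XTH8 and GLU10 and overlap for EXPA5, EXPB3 and GLU2; the vertical axes differ between genes.

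EXLA genes encode expansin-like proteins, which share the expansin fold and for which no loosening activity has been established. Of 4 genes 3 were higher and 1 lower, and 0 were called. EXLA1, at 6.95 in both groups, stood at 0.119, 0.164 and 0.109 thousandths from the control mean with additional NH4Cl, and at -0.0676, -0.0123 and 0.0799 in control. All NH4Cl arrays lay above all control arrays. The difference was 0.131 thousandths (SE 0.0462; 2.32 SDs; limma adjusted p of 0.403). With no overlap, it stays positive by construction when any 1 array is left out. It was 0.0291 thousandths after quantile normalization and 0.254 after median centring.

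EXLA4, at 6.91 in both groups, was the reverse as deposited. It stood at -8.25, -4.9 and -6.54 millionths from the control mean with additional NH4Cl and at -0.888, 3.95 and -3.06 in control, with no overlap. The difference of -6.56 millionths (SE 2.29; -2.34 SDs; adjusted p of 0.4) was positive after median centring and after quantile normalization. EXLA2, at 7.52, stood at 0.0215, -0.15 and 0.583 thousandths with additional NH4Cl and 0.0926, 0.0535 and -0.146 in control. Here NH4Cl replicate 3 alone was above the controls, and the difference of 0.151 thousandths (adjusted p of 0.911) was -0.0642 thousandths without it. Its second probe set, which can hybridize with several transcripts, gave 0.316 thousandths. EXLA3, at 6.06, lay just below the reporter mark, with a difference of 5.0 millionths. Without NH4Cl replicate 3, 1 of 4 EXLA genes was higher.

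XTH8, the sole gene with an XTH name in the gene table, is known in rice as a gibberellin-responsive gene of this family. Genes of the family under other names were not sought. Its signal was 8.78 in both groups. The arrays stood at -1.001, -3.25 and -4.24 thousandths from the control mean with additional NH4Cl, and at -0.623, 0.782 and -0.159 in control. All NH4Cl arrays lay below all control arrays, with replicate 1 near the lowest control. The difference was -2.83 thousandths (SE 1.04; -2.21 SDs), with a 95% interval of -5.47 to -0.188 and a limma adjusted p of 0.423. It was lower under both scalings. Leaving out any 1 array gave between -3.74 and -2.12 thousandths, and could not turn the direction, since the groups did not overlap.

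The endoglucanases were lower with additional NH4Cl for 8 of 13 genes and higher for 5, with a median t of -1.02, and 0 were called. After median centring 3 of 13 were lower, and after quantile normalization 5, with 2 left without a difference. Groups that did not overlap were found for 3 of 13, all lower (23.1%, beside 23% at 1 probe set per gene). Of these OsCel9C and GLU13 lay below the reporter mark. Those above the reporters were GLU1, GLU2, GLU10 and GLU11.

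GLU1, also named OsCel9D, is a membrane-bound endoglucanase of the KORRIGAN type whose mutants are dwarfed with less cellulose. Its signal was 9.37 in both groups. It stood at -0.198, -0.527 and -0.204 thousandths from the control mean with additional NH4Cl, and at 0.158, 0.0505 and -0.209 in control. Control replicate 3 lay among the NH4Cl arrays, and the other control arrays above them. The difference was -0.31 thousandths (SE 0.154; -1.65 SDs; adjusted p of 0.555), with no difference left after quantile normalization.

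GLU2, at 9.23 with additional NH4Cl and 9.24 in control, stood at -1.13, -0.119 and -0.265 thousandths from the control mean with additional NH4Cl. Its control arrays stood at 0.126, 0.341 and -0.468. The difference of -0.503 thousandths (SE 0.396; adjusted p of 0.747) came to -0.192 without NH4Cl replicate 1 and to -0.27 after quantile normalization, and was lower under both scalings. GLU1 and GLU2 thus each had 3 of 3 NH4Cl arrays below the control mean, with control replicate 3 inside the range of the NH4Cl arrays.

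GLU10 had the largest difference of the class, with groups that did not overlap. Its signal was 6.65 with additional NH4Cl and 6.66 in control. The arrays stood at -1.41, -2.32 and -4.25 thousandths from the control mean with additional NH4Cl and at -0.555, 1.51 and -0.96 in control. The difference was -2.66 thousandths (SE 1.13; -1.91 SDs; limma adjusted p of 0.485), lower under both scalings. With no overlap, leaving out any 1 array could not turn it. As in XTH8, NH4Cl replicate 3 was the lowest array and control replicate 2 the highest.

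GLU11, at 7.47 in both groups, had overlapping groups and a difference of 0.0116 thousandths (SE 0.0307). OsCel9C and GLU13 were lower without overlap at signals of 5.41 and 5.99, below the reporter mark. OsCel9C stood at -1.57, -3.63 and -3.97 millionths with additional NH4Cl against -1.04, 0.654 and 0.385 in control (adjusted p of 0.346). GLU13 stood at -0.541, -1.56 and -1.94 millionths with additional NH4Cl against -0.404, -0.269 and 0.673 in control (adjusted p of 0.486). Both were positive after median centring, and OsCel9C also after quantile normalization. The other 7 genes of the class, among them GLU5 or OsCel9A and GLU14 or OsCel9F, lay below the mark with overlapping groups.

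**Figure D4:**
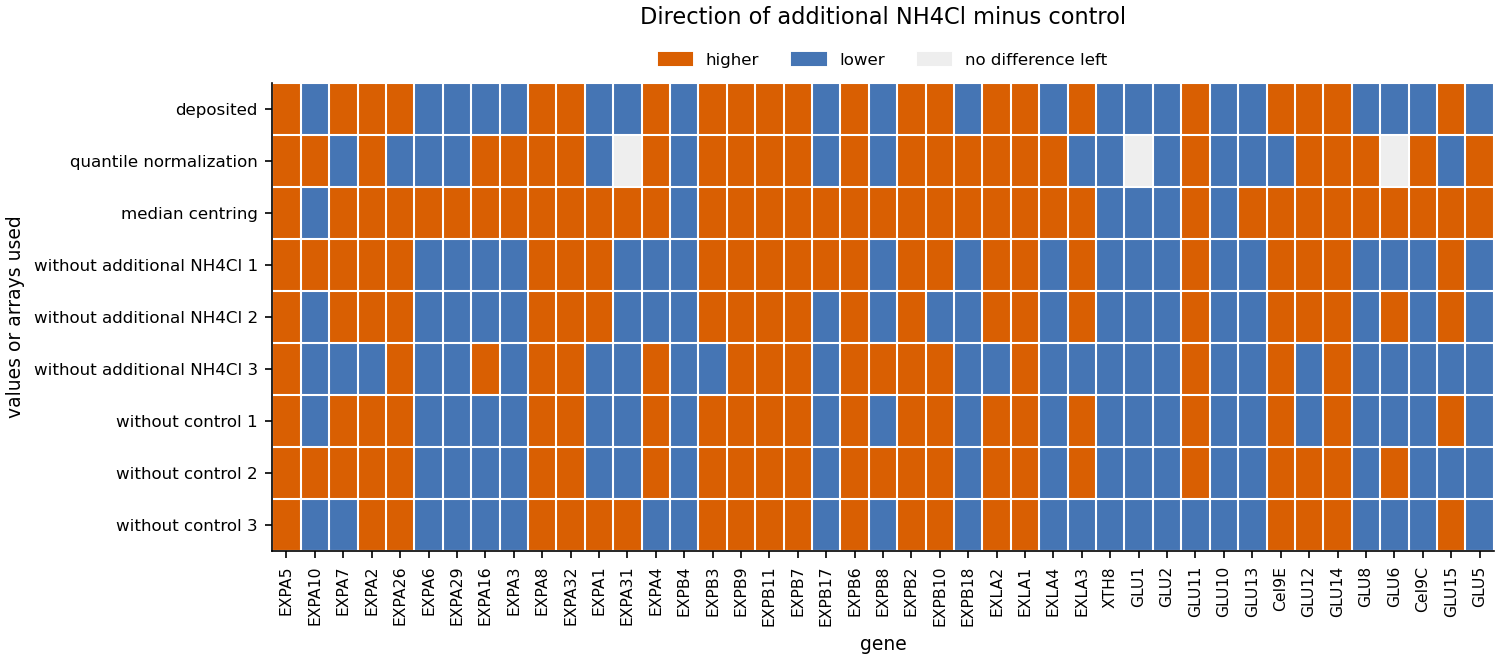
Direction of additional NH4Cl minus control for each gene (columns, by class and signal) in the deposited values, after each of the scalings and with each array left out (rows), with orange for higher, blue for lower and grey for no difference left. Median centring turned 15 of 43 genes, and 14 genes kept 1 colour in all 9 rows.

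For many members the direction depended on the scaling. After quantile normalization 25 of 43 members were higher, 15 lower and 3 without a difference, beside 39.7% of all rice probe sets higher and 22% without a difference, and 1 of 43 was called, beside 7.13%. After median centring 37 of 43 were higher, beside 95.6% of all rice probe sets, and 31 of 43 were called, beside 89.8%. Centring adds the same amount to the difference of every probe set. That amount was positive, so by construction a higher gene stayed higher and a lower gene with a small difference turned. One direction in the deposited values, under both scalings and with each array left out held for 14 of 43 members (32.6%), beside 17.9% of all rice probe sets. Of these 10 were higher (23.3% of members, beside 14.5%) and 4 lower (9.3%, beside 3.38%). No such share was computed at 1 probe set per gene. Of all rice probe sets, the 22% without a difference after quantile normalization could not keep a direction. Leaving out 1 array could not turn a gene whose groups did not overlap. Among the 21 above the reporters 9 (42.9%) kept their direction, and no share was computed for rice probe sets at such signals. They were EXPA5, EXLA1, EXPB7, EXPB9 and EXPB11, which were higher, and EXPB4, XTH8, GLU2 and GLU10, which were lower.

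The spread over arrays went with the signal. Members above the reporters had a median SD of 293 millionths over the 6 arrays, and the others 1.09 millionths. All rice probe sets had medians of 27.7 and 1.14 millionths at these signals. The members' SDs ran from 4.65e-07 to 0.0392, and Spearman's rho of signal and SD was 0.781 over 43 members and 0.66 over all rice probe sets, all from the same 6 arrays. An SD over 0.001 was found for 7 of 43 members (16.3%), beside 2.64% of all rice probe sets. All 7 were among the 21 members above the reporters (33.3%), beside 7.23% of rice probe sets at such signals. They were EXPA5, EXPB3, EXPB7, EXPB9, EXPB11, XTH8 and GLU10.

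**Figure D5:**
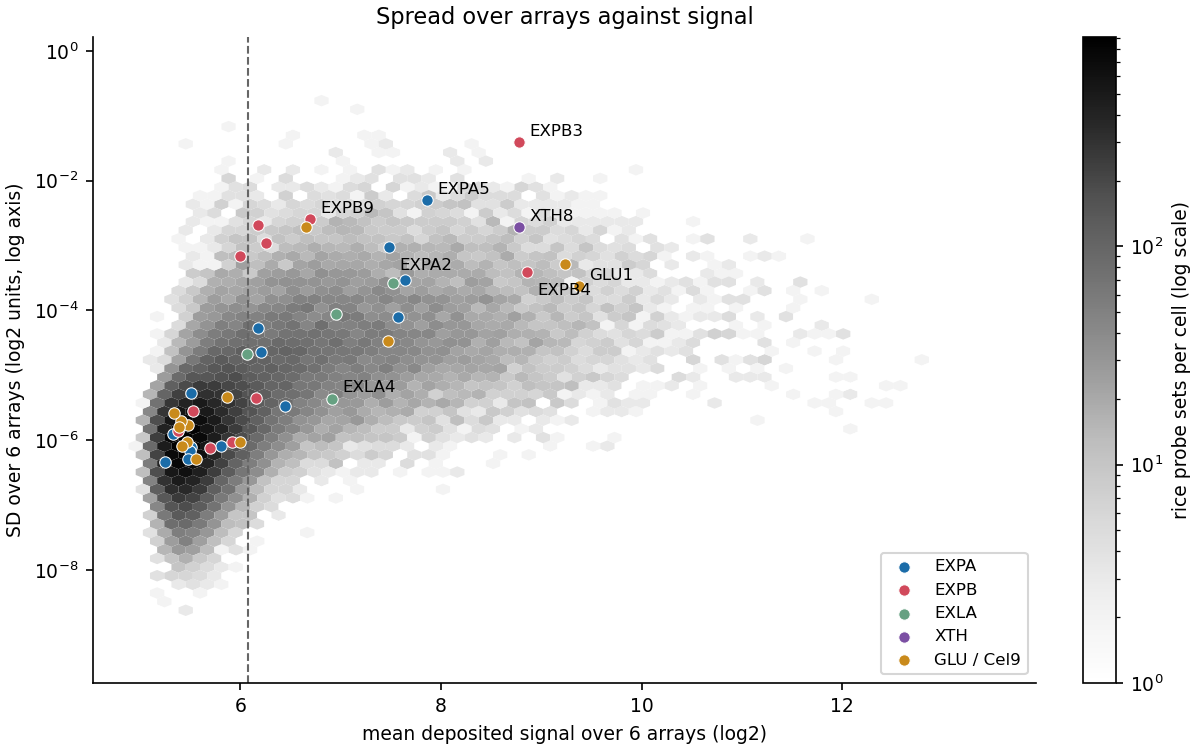
SD over the 6 arrays (vertical log axis, deposited log2 units) against mean deposited signal (horizontal axis) for the 43 genes, coloured by class, over all rice probe sets in grey, with the highest reporter as a dashed line. Genes right of the line have SDs up to 0.0392, that of EXPB3, and those left of it lie mostly near 1 millionth.

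Other wall genes, most of which serve to make the wall, were mostly lower as deposited. Of 39 such genes 29 were lower and 10 higher, beside 50.4% of all rice probe sets and 44.6% at 1 probe set per gene higher. The median t was -1.16, against -0.19 at 1 probe set per gene, and 0 were called. Groups did not overlap for 15 (38.5%, beside 17.4% of all rice probe sets and 23% at 1 probe set per gene). Of these 13 were lower, beside 8.99% and 14.2%. After quantile normalization 27 of 39 were lower, 10 higher and 2 without a difference, beside 39.7% of all rice probe sets higher and 22% without a difference. After median centring 15 were lower and 24 higher, a smaller share than the 95.6% of all rice probe sets that were higher. They comprise cellulose synthases, cellulose synthase-like genes, BC1 genes, pectin methylesterase inhibitors and UGE genes. The smallest p were those of CSLC7, a xyloglucan backbone synthase, at -0.189 thousandths (SE 0.0143; adjusted p of 0.0921) and CSLA1, of a mannan synthase family, at -0.227 thousandths (SE 0.0268; adjusted p of 0.129). CSLC7 lay below the reporter mark, at 5.87, on a probe set that can hybridize with several transcripts. The difference between the other wall genes and the members was not tested.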

How the data were processed

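Per probe set and array the deposited table has 1 value, for 57381 probe sets and 6 arrays. Because they run from 4.96 to 13.51, the authors' deposited values were taken as log2 signal; no source used here gives log base, summarization or normalization. No pair of arrays shared more than 41 values. Tests left out 187 Affymetrix control probe sets.

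Additional NH4Cl minus control was fitted to 57194 rice probe sets with limma 3.58.1 in R 4.3.3 without trend or block, two-sided, with Benjamini-Hochberg adjustment at 0.05. Standard errors are unmoderated, and 95% intervals are limma's moderated ones. The script was tested on simulated data, with shifts in within-group SDs far larger than any member's. Whether differences of the members' size would be called was not tested. The number of arrays limits the precision.

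Gene names were taken from GEO's platform annotation, updated through the gene table (assembly ASM3414082v1). In this way 22436 probe sets had 1 gene, 95 several, and 34663 of the rice array had no name here. Names beginning with Cel9 and a letter were counted as Cel9, which admitted 2 genes without a GLU number. Coordinates are left out, since no source names a build. Members, lists and the background mark were chosen with earlier results of these data known. Named genes were, per class, up to 5 with the smallest p among those whose groups did not overlap, the 2 with the highest mean and the largest difference; EXPA1, EXPA2, EXPA4, EXPA6, EXPA7, EXPA26, EXPB6, EXPB7, EXPB8, EXPB10, EXPB11, EXPB18, EXLA3, GLU5, GLU11 and GLU14 were named after their values were seen.

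Results were recomputed with the replicate number as a block, with a robust and trended eBayes, and with unequal variances, quantile normalization, median centring, probe sets below the median level or open to cross-hybridization removed, the mean of a gene's probe sets and each array left out.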

Additional observations from a re-analysis of the deposited data

How the results depend on the processing

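No member was called as deposited, with the replicate block, with trend and robust, with unequal variances, after either filter, with the mean of a gene's probe sets or with any 1 array left out. Quantile normalization called 1 of 43, EXPB18, which lies below the reporter mark and was higher there (0.0139 thousandths) but lower as deposited (-1.6 millionths), and median centring called 31 of 43. Probe sets called over the whole table numbered 2 with the replicate block, 2 with trend and robust, 0 with unequal variances, 4079 after quantile normalization, 51354 after median centring, 32 with those below the median level left out, and 0 to 1 with 1 array left out. Median centring gave 37 members higher, 13 in EXPA and 10 of 13 endoglucanases, and 31 without overlap (72.1%, beside 90% of all rice probe sets). The filter on level left 27 members, of which 14 were higher (4 of 8 EXPA, 2 of 6 endoglucanases) and 7 did not overlap (25.9%, beside 21.9% of the probe sets kept). With 1 array left out, 17 to 24 members were higher, with 1 to 3 of 4 EXLA, 6 to 8 EXPA, 6 to 8 EXPB and 3 to 6 endoglucanases, and 12 to 17 did not overlap (27.9% to 39.5%, beside 25.1% to 30.3% of all rice probe sets and 28.8% to 37.5% at 1 probe set per gene). With fewer arrays groups overlap less often by construction.

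Among named members, median centring turned OsCel9C (0.000119), EXLA4 (0.000116), EXPA29 (3.42e-05) and GLU13 (0.000121), and quantile normalization turned OsCel9C (2.87e-06), EXLA4 (0.000328) and EXPA10 (0.000322). With 1 array left out, EXPA10 ran from -0.00033 to 2.49e-05, EXLA2 from -6.42e-05 to 0.000302 and EXPB3 from -0.00809 to 0.0479. EXPA10 turned without NH4Cl replicate 1 (2.49e-05) and control replicate 2 (1.87e-05), and without NH4Cl replicate 3 EXLA2 (-6.42e-05) and EXPB3 (-0.00809) turned. The cause was not tested beyond what centring adds by construction. Same-numbered arrays did not deviate together (correlations of -0.0616, 0.0449 and -0.0775), so the numbers were not taken as pairs.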
